A study of Mus musculus with 2 samples.

Results

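The nuclear-encoded respiratory chain genes are described here as 94 protein-coding genes, of 22028 protein-coding genes and 55536 genes in all. They were chosen by name in the GENCODE M21 annotation, as the Nduf subunit and assembly factor families, Sdha to Sdhd, the Uqcr family, the Cox4 to Cox8 families and the Atp5 family. The 94 genes carried 93 names, because 2 gene identifiers on chromosome 16 were both named Atp5o. Grouped by complex, they comprised 38 complex I subunit genes, 8 complex I assembly factors, 4 complex II, 8 complex III, 18 complex IV and 18 complex V genes.

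The RNA came from inflammation-experienced regulatory T cells, taken as primary cells from an adult male at 6 months of age and sequenced after polyA selection. The strain was Foxp3CreERT2 x Rosa26YFP, in which the Foxp3 locus drives a tamoxifen-inducible Cre recombinase and Rosa26 carries a YFP reporter, and the labels trace the cells to bone marrow hematopoietic cells. The study had a single group, for which 2 technical libraries of 1 biological replicate were given, so no condition could be compared with another. Every SD covers technical variation alone, and every p-value compares these libraries and no conditions.

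Gene counts totalled 15386113 in technical replicate 1 and 13604480 in technical replicate 2. The 6 regulatory T cell markers were all detected, among them Foxp3 at 22.1 and 17.9 TPM (length-corrected transcript abundance, scaled to a fixed sum per library) in technical replicates 1 and 2. Of the B cell, neutrophil and testis markers, 3 of each, none reached 1 TPM in both libraries. Of the 4 striated muscle markers 1 did (Actn2, 4.51 and 6.25 TPM), of the 3 monocyte or macrophage markers 1 (Cd68, 3.35 and 2.72 TPM), of the 3 cytotoxic or NK markers 1 (Cd8a, 2.52 and 2.35 TPM), and the 3 erythroid markers lay between 1.70 and 8.16 TPM. Their part in the levels below was not tested. In bulk RNA, fewer cells of a type and less RNA per cell cannot be told apart.

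The respiratory chain passes electrons from NADH (complex I) and succinate (complex II) through ubiquinone to complex III, and from there through cytochrome c to oxygen at complex IV. Complexes I, III and IV pump protons out of the mitochondrial matrix, and complex V, the ATP synthase, uses their return to make ATP. Complex II is encoded by the nucleus alone, whereas the other complexes combine nuclear-encoded subunits with some made inside the mitochondrion. Regulatory T cells are known to rely on oxidative phosphorylation more than conventional effector T cells do.

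Most of these genes were expressed at a high level. Of the 94 members, 86 were detected, meaning at least 1 TPM in each library, which is 91.5%, beside a background of 46.7% of all protein-coding genes (10288 of 22028). In both libraries, 63 members reached 100 TPM, a level that 1157 of the 22028 protein-coding genes reached, and 74 stood in the top 10% of protein-coding genes. The median level was 168.6 ± 0.396 TPM over all 94 members (SD between the medians of the technical libraries, n = 2). The detected protein-coding genes had a median of 18.3 TPM. The members together held 1.83% of gene TPM in technical replicate 1 and 1.83% in technical replicate 2, or 0.996% and 0.990% of estimated counts. The 13 mitochondrially encoded subunit genes held 4.08% and 3.96% of gene TPM, with a median of 2196 TPM. The 78 mitochondrial ribosomal protein genes, which build the ribosomes that translate those 13 messages, had a median of 52.0 TPM.

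**Figure D1:**
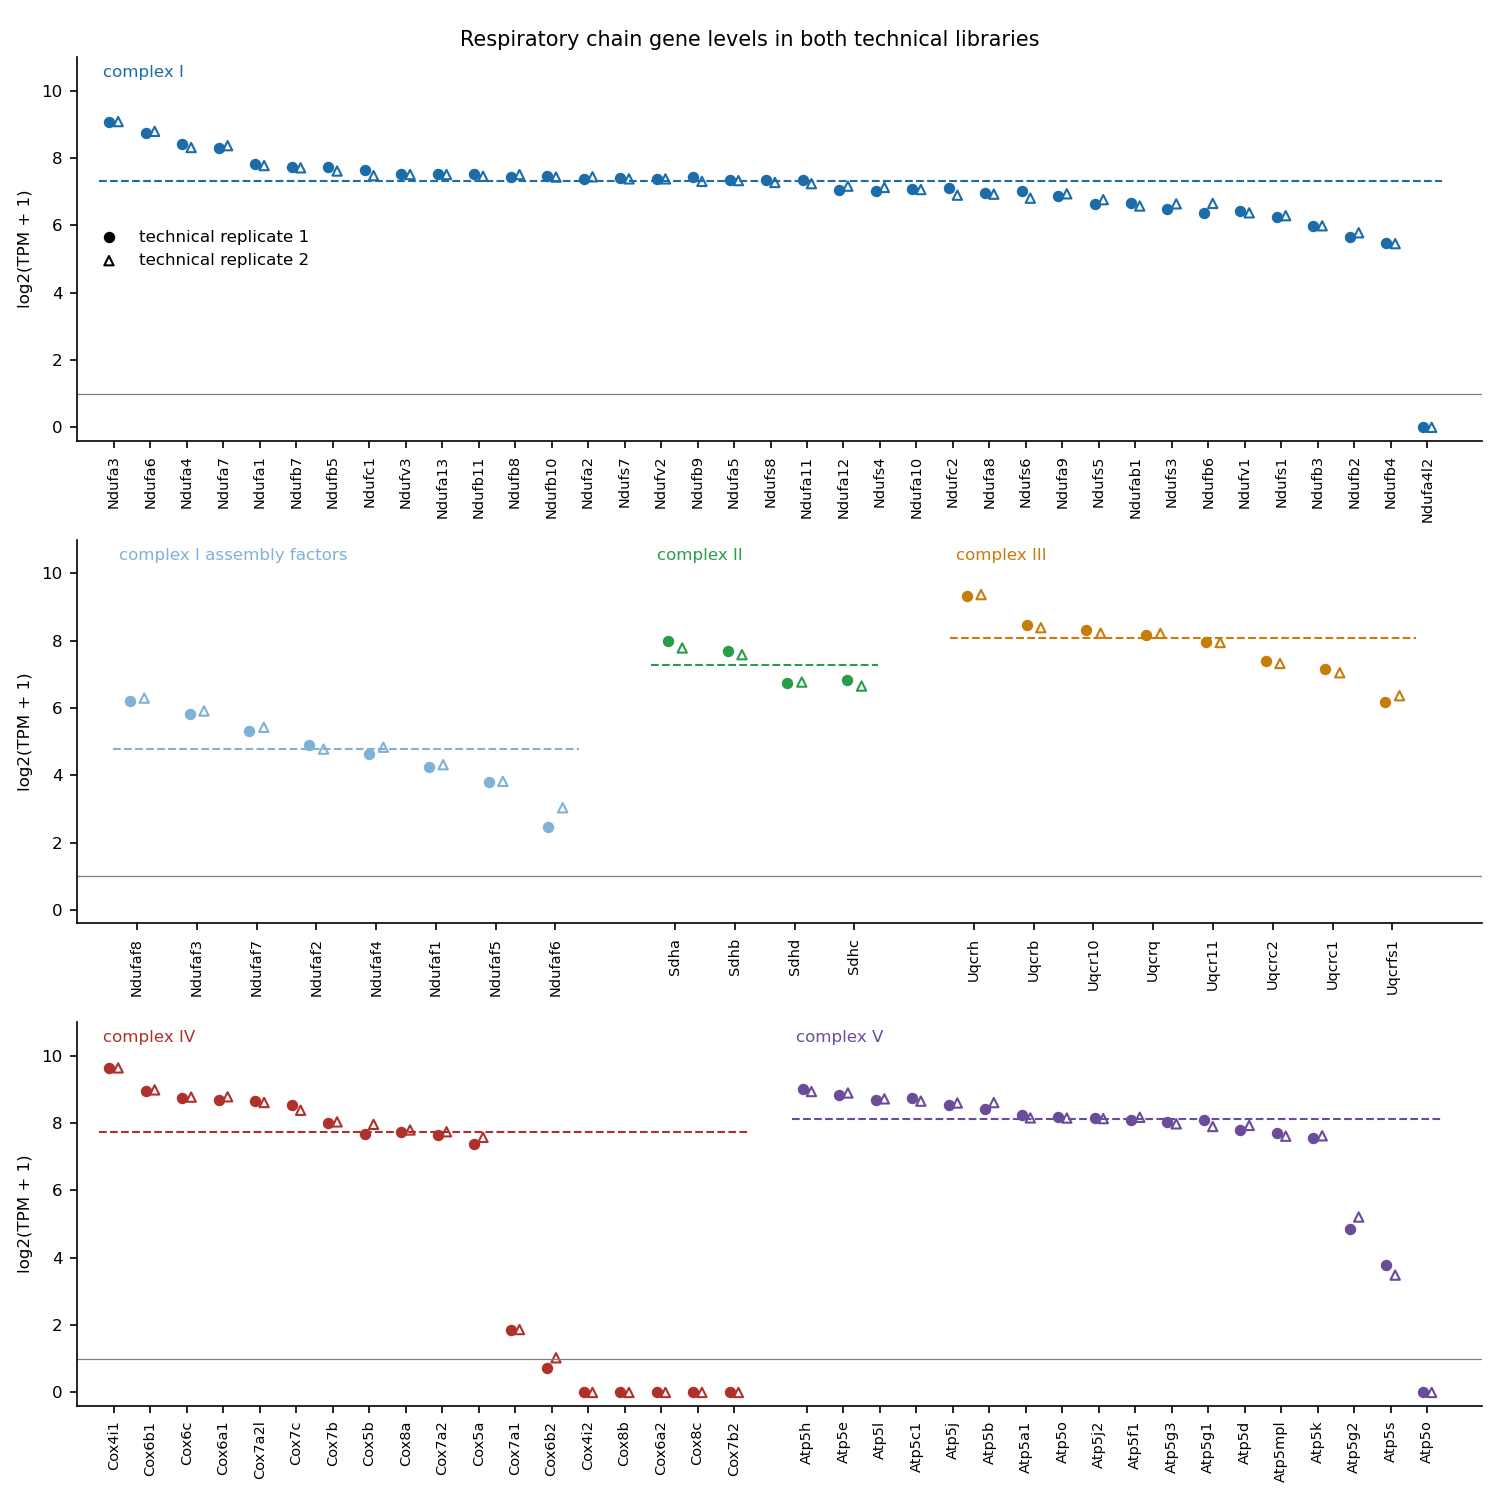
Level of 93 of the 94 members as log2(TPM + 1), by complex and in falling order of the mean. Filled circles are technical replicate 1, open triangles technical replicate 2, dashed lines the level of the median TPM of each complex and the grey line 1 TPM. Most members of complexes II, III and V and the general subunits of complex IV lie well above the complex I assembly factors, and 7 members lie at 0.

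Complex I subunits had a median of 156.8 ± 7.01 TPM over 38 genes, of which 37 were detected. The 7 core subunits, which carry the flavin, the iron-sulphur clusters and part of the ubiquinone site, were fairly even, with a median of 93.4 TPM and a range of 76.0 to 167.7 TPM for the mean of both libraries. Ndufs7 and Ndufs8, which hold clusters near the ubiquinone site, had 169.8 and 163.2 TPM in technical replicate 1 and 165.6 and 153.7 TPM in technical replicate 2. Ndufv2, of the NADH-oxidising module, was alike at 166.6 and 165.5 TPM in technical replicates 1 and 2. Ndufv1, Ndufs1 and Ndufs3 were lower, and none of these 3 reached 100 TPM in either library. Ndufv1, which binds NADH and the flavin, had 85.2 and 81.8 TPM in technical replicates 1 and 2. Ndufs1, with several iron-sulphur clusters, had 74.9 and 77.1 TPM. Ndufs3, in the arm that leads to ubiquinone, had 88.2 and 98.7 TPM.

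The 30 accessory subunits of complex I, which surround and stabilise the core, had a median of 162.7 ± 4.35 TPM and a wider range, 43.3 to 540.9 TPM. Ndufa3 was highest at 540.9 TPM in both technical replicates, Ndufa6 followed at 423.5 and 442.1 TPM in technical replicates 1 and 2, and Ndufa4 had 342.2 and 316.7 TPM. Ndufa4 is named as a complex I subunit but is now regarded as part of complex IV. The lowest accessory subunits were Ndufb4 at 43.7 and 42.9 TPM and Ndufb2 at 48.9 and 53.9 TPM. Ndufa4l2, the paralogue of Ndufa4 that is induced by hypoxia, was without a read in both libraries, and the upper limit for such a count of 0 was 0.336 TPM for technical replicate 1 and 0.380 for technical replicate 2.

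The 8 complex I assembly factors, which help to build the complex and are not part of it, were expressed at lower levels, with a median of 26.6 ± 0.477 TPM. All 8 were detected. Ndufaf8 was highest at 73.2 and 77.3 TPM in technical replicates 1 and 2, and Ndufaf6 was lowest at 4.55 and 7.19 TPM. Every assembly factor apart from Ndufaf8 and Ndufaf3 lay below the lowest detected complex I subunit in both libraries.

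Complex II had the narrowest range, from 106.5 to 235.8 TPM, and a median of 152.3 ± 7.18 TPM. Sdha, the flavoprotein that oxidises succinate, had 252.7 and 218.9 TPM in technical replicates 1 and 2. Sdhb, the iron-sulphur subunit, had 205.1 and 190.5 TPM. The membrane anchors lay about level with each other and below the catalytic pair. Sdhc had 113.6 and 99.4 TPM in technical replicates 1 and 2, and Sdhd had 105.5 and 107.9 TPM.

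In complex III, the median over 8 genes was 268.7 ± 2.36 TPM. The small subunits stood above the large ones. Uqcrh, the hinge protein at the cytochrome c1 side, had 642.4 and 658.3 TPM in technical replicates 1 and 2. Uqcrb had 355.1 and 332.6 TPM, and Uqcr10 had 315.7 and 297.1 TPM. The 5 small subunits had a median of 306.4 TPM, whereas the core proteins Uqcrc1 and Uqcrc2 had means of 135.6 and 162.5 TPM. The lowest member was Uqcrfs1, the Rieske iron-sulphur protein that takes electrons from ubiquinol, with 70.6 and 81.3 TPM in technical replicates 1 and 2. Cyc1, the cytochrome c1 subunit that the name rule leaves out, had 82.8 and 89.5 TPM.

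Complex IV divided into general subunits at high levels and isoforms of other tissues at or near 0. The 11 general subunits had a median of 351.1 ± 26.1 TPM and a range of 178.0 to 794.9 TPM. Cox4i1, the subunit through which ATP regulates the enzyme, was the highest of all 94 members at 792.5 and 797.3 TPM, and ranked 136 among protein-coding genes in both libraries. Cox6b1 had 497.2 and 506.4 TPM in technical replicates 1 and 2, and Cox6c had 431.7 and 436.4 TPM. Cox5a was the lowest general subunit at 166.0 and 190.0 TPM.

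Several complex IV subunits exist as isoforms that are made mainly in heart and skeletal muscle (Cox6a2, Cox7a1, Cox8b), in lung (Cox4i2) or in testis (Cox6b2, Cox7b2, Cox8c). Of these 7 genes, 5 had no read in either library. For those 5 a count of 0 allows at most 0.776 TPM for technical replicate 1 and 0.879 for technical replicate 2, the limits of Cox8b. Cox7a1 had 2.60 and 2.65 TPM from 12 and 10 counts in technical replicates 1 and 2, and Cox6b2 had 0.64 and 1.04 TPM from 4 and 6 counts. The isoform of the general kind therefore held 100% of the TPM in the pairs of Cox4i1, Cox6a1 and Cox7b and in the Cox8 trio, and Cox6b1 held 99.8% of its pair. Ndufa4 likewise held 100% of its pair with Ndufa4l2. Of the 4 striated muscle marker genes, Ckm and Tnnt2 were below 0.3 TPM in both libraries, Myl1 had no read and Actn2 had 4.51 and 6.25 TPM in technical replicates 1 and 2.

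The Cox7a trio was the one complex IV group with a pair of abundant paralogues. Cox7a2l, known for its role in joining complexes III and IV into supercomplexes, had 401.6 and 390.4 TPM in technical replicates 1 and 2. Cox7a2, the widely expressed subunit, had 199.3 and 213.1 TPM. Cox7a2l thus held 65.5 ± 1.51% of the trio's TPM and Cox7a2 34.1 ± 1.51% (SD, n = 2 technical libraries). In the smaller gene table, described below, the order was the opposite, with 31.2% for Cox7a2l and 67.1% for Cox7a2.

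Complex V had a median of 280.4 ± 3.34 TPM over 18 genes, of which 17 were detected. This was the highest median when all members were counted, but over detected members alone complex IV was higher, at 305 TPM beside 281 TPM in complex V. The 5 genes of the F1 head and central stalk, where ATP is made, ranged from 232.9 to 464.8 TPM. Among them the catalytic beta subunit Atp5b had 341.9 and 389.7 TPM in technical replicates 1 and 2, and its partner Atp5a1 had 301.6 and 284.0 TPM. The highest members of the complex were Atp5h of the peripheral stalk, at 518.5 and 489.4 TPM, Atp5e of the central stalk, at 454.4 and 475.3 TPM, and the small membrane subunit Atp5l, at 411.9 and 420.9 TPM. Atp5s, the coupling factor B gene, was lowest among the detected members at 12.7 and 10.2 TPM. The second Atp5o identifier had no read, with an upper limit of 0.502 TPM for technical replicate 1 and 0.568 for technical replicate 2.

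The c ring, the rotor that turns as protons pass, is encoded by Atp5g1, Atp5g2 and Atp5g3, whose mature proteins are identical and whose targeting sequences differ. Atp5g1 had 270.7 and 237.8 TPM in technical replicates 1 and 2, Atp5g3 had 263.0 and 251.1 TPM, and Atp5g2 had 27.9 and 36.1 TPM. Their shares of the trio were 46.7 ± 2.06%, 47.3 ± 0.713% and 5.92 ± 1.34% (SD, n = 2 technical libraries). In TPM the shares of Atp5g1 and Atp5g3 lay within their spread of each other. By estimated counts they lay further apart, at 42.2% for Atp5g1 and 51.5% for Atp5g3. The low value of Atp5g2 stood beside a processed pseudogene annotated as transcribed, Gm10175, that had 445.2 and 460.9 TPM. Processed pseudogenes are copies of a spliced message inserted elsewhere in the genome. Over the last 210 coding bases, Atp5g2 differed from Atp5g1 at 33 and from Atp5g3 at 45 positions, while all 438 coding bases of Atp5g2 were found in Gm10175 with 0 differences.

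A stretch near the end of the coding sequence shows this on a small scale, in 30 bases of GENCODE M21 transcripts of Atp5g2 (chromosome 15), Gm10175 (chromosome 7), Atp5g1 (chromosome 11) and Atp5g3 (chromosome 2), written 5′ to 3′. Capitals mark the positions at which any of the 4 sequences differ.
Atp5g2: ggGctcttTtgCCtAatggtGgcCttTCtC
Gm10175: ggGctcttTtgCCtAatggtGgcCttTCtC
Atp5g1: ggActcttCtgTTtGatggtCgcCttCCtC
Atp5g3: ggTctcttTtgTTtGatggtTgcGttCTtG
In this stretch Atp5g1 differed from Atp5g2 at 7 positions and Atp5g3 at 9, and Gm10175 at 0. A read from this stretch alone could separate the paralogues but not Atp5g2 from its copy.

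Reads that could belong to other genes concerned many members. Of the 94 members, 44 shared at least 1 stretch of 50 bases, in any transcript, with a transcript of another gene that does not overlap it. This number includes small shares with genes that need not be copies. In Ndufs1, for example, 0.154% of stretches were shared, with 81 other genes of which 64 are protein coding. Of the 94 members, 41 overlapped another annotated gene, 33 of them a gene on the other strand. Since the strand setting of the counting is not given in the sources used here, reads of those 33 and of their antisense partners may not be separable. An annotated pseudogene with at least 100 such shared stretches was found for 14 members, 22 pseudogenes in all. For 7 of the 14 the member held at least 90% of the summed counts in both libraries, so their levels differed little with the copies added. For 3 members the copies held more TPM than the member in both libraries.

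Those 3 were Atp5g2, Ndufb4 and Atp5l, of which Atp5g2 was the most unequal. The 2 copies of Atp5g2 summed to 487.9 and 496.5 TPM in technical replicates 1 and 2. Ndufb4, with 43.7 and 42.9 TPM, stood beside its pseudogene Ndufb4c on chromosome 15 at 207.6 and 211.7 TPM. Atp5l, with 411.9 and 420.9 TPM, stood beside 5 copies at 549.8 and 530.9 TPM, nearly all of it in Gm10221 on chromosome 5. By estimated counts Atp5l held more than its copies, 53.1% and 54.4% of the sum in technical replicates 1 and 2. A further member, Cox7c on chromosome 13, was close to balance, with 369.6 and 332.6 TPM beside 324.8 and 351.7 TPM in 2 copies. The whole coding sequence of Ndufb4 (387 bases), Atp5l (309 bases) and Cox7c (189 bases) was present without a difference in Ndufb4c, Gm10221 and Gm12338. The first 30 coding bases show what such a read would contain, and each of these lines is equally the sequence of the copy.
Ndufb4: atgtcgggttccaagtataagcctgcgccc
Atp5l: atggccaagttcatccgtaacttcgcggag
Cox7c: atgttgggccagagtatccggaggttcacg

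With each member and its copies summed, Atp5g2 would hold 47.2% of the c ring trio, Atp5g1 29.6% and Atp5g3 23.2%. The deposited values divide the reads between gene and copy by estimation. The annotation lists Gm10175 and the Cox7c copy Gm10012 as transcribed, and which of the loci was transcribed in these cells was not tested.

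**Figure D2:**
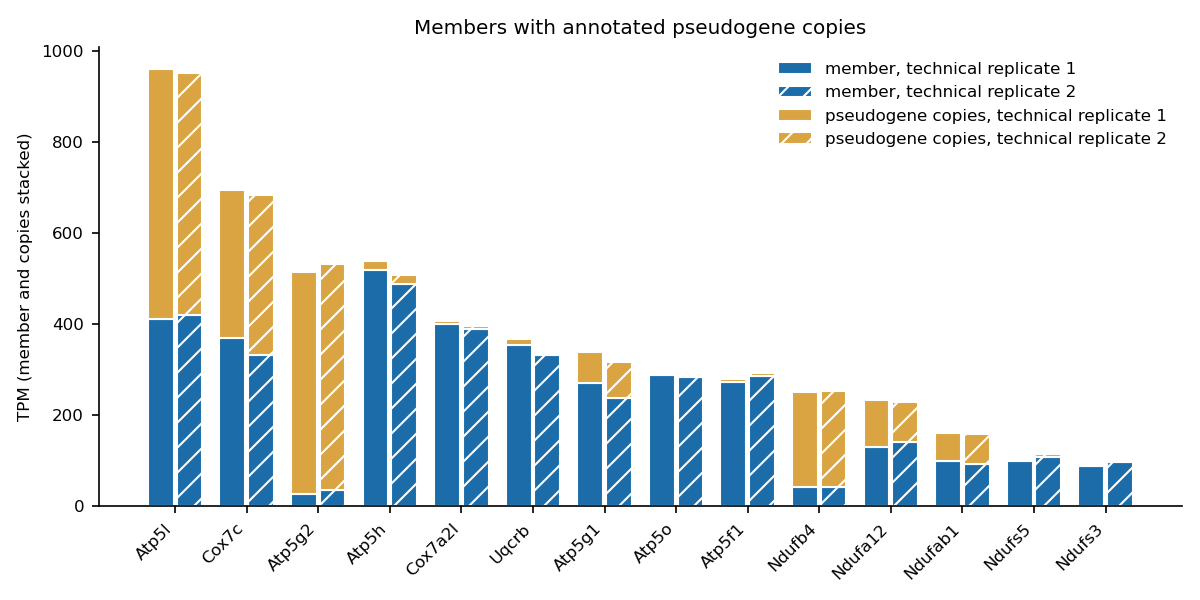
TPM of the 14 members that have annotated pseudogene copies (blue) with the summed TPM of those copies stacked above (yellow), for technical replicate 1 (plain) and technical replicate 2 (hatched). In Atp5g2 and Ndufb4 most of the bar belongs to copies, whereas in Atp5h the member holds nearly all of it.

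A smaller table from the same libraries, which used GENCODE M4 genes and alignments to the genome, had whole-number counts and no fractions of reads. It held 3581589 and 3271045 counts in technical replicates 1 and 2, or 23.3% and 24.0% of the larger table. The 49 members with at least 100 estimated counts in each library and no shared stretch in their main transcript kept a median of 46.3% of their larger-table count. The 29 members with less than 50% of stretches shared kept 29.0%, and the 6 members with 50% or more shared kept 1.90%. Across these 84 members, Spearman's rho between the shared share and the kept share was -0.64 and Pearson's r was -0.63, given as a description of genes measured in the same libraries.

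The 6 genes with 50% or more shared were Atp5g2, Atp5l, Atp5g1, Ndufa12, Cox7c and Atp5h. Cox7c had 1946 and 1587 estimated counts in technical replicates 1 and 2, against 14 and 15 counts in the smaller table. Atp5l had 2019 and 1814 estimated counts against 22 and 18, and Atp5g1 had 1880 and 1465 against 30 and 22. Within the c ring trio the smaller table gave 95.9% to Atp5g3, 3.37% to Atp5g1 and 0.716% to Atp5g2. The level of a member with many shared stretches therefore differed widely between the gene tables, while Sdha, with 6007 and 4589 estimated counts, kept 2596 and 2209. Cox4i1 had no shared stretch in its main transcript and yet kept 17.3%, the lowest value of the 49.

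**Figure D3:**
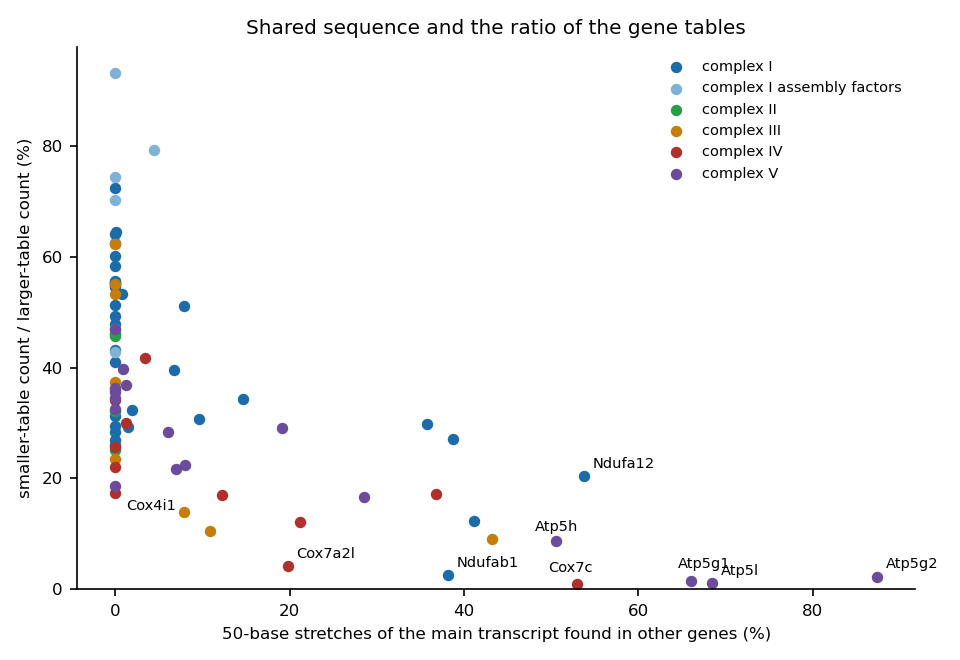
Count in the smaller table as a percent of the estimated count in the larger table (mean of both libraries) against the percent of 50-base stretches of the main transcript that occur in other genes, for 84 members coloured by complex. Members with 50% or more shared lie at or below 20.4%, and those with none spread between 17.3% and 93.2%.

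The transcript table showed which product of each gene the reads were assigned to. In 76 of the 86 detected members, 50% or more of the TPM went to the leading transcript in each library, and in 34 members 90% or more. The leading transcript was not annotated as protein coding for 15 members, of which 7 led with a retained intron, 5 with a processed transcript and 3 with a transcript subject to nonsense-mediated decay. Ndufb4 led with Ndufb4-202, a retained intron of 465 bases, at 94.6% and 96.3% of its TPM in technical replicates 1 and 2. Ndufa3, the highest accessory subunit of complex I, led with Ndufa3-204, a decay transcript of 343 bases, at 89.5% and 90.7%. Cox7b led with Cox7b-203, a retained intron of 526 bases, at 66.7% and 60.3%. By contrast Cox4i1 led with the protein-coding Cox4i1-201 at 90.7% and 94.3%.

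Counting only transcripts annotated as protein coding, an alternative chosen after the data had been seen, Ndufa3 had 40.7 and 28.3 TPM, Cox7b 26.3 and 25.2 TPM and Ndufb4 1.95 and 1.12 TPM in technical replicates 1 and 2. Cox4i1 kept 749.7 and 762.7 TPM. The median of complex IV was then 75.0 TPM, against 211.4 TPM over all transcripts. Over all 18 genes, isoforms at or near 0 included, complex IV thus did not stand above complexes I and II on that scale. The means of the 11 general subunits alone ranged from 25.75 TPM (Cox7b) to 756.2 TPM (Cox4i1). Cox7c stood in the middle of these at 249.9 TPM, above the medians of complexes I (123 TPM) and II (132 TPM). Ndufaf6, a gene with few counts, had 54 and 45 in technical replicates 1 and 2, which gave 4.55 and 7.19 TPM. The protein-coding Ndufaf6-201 held 89.4% of its TPM in technical replicate 1 and 15.6% in technical replicate 2. Its effective mix of transcripts was 1004 bases long in technical replicate 1 and 619 bases in technical replicate 2, so counts and TPM ordered the libraries differently.

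The libraries were compared gene by gene with a two-sided exact binomial test on rounded estimated counts, with the share expected from library size and Benjamini-Hochberg adjustment over all 17334 genes tested. The members differed little, with log2 ratios of technical replicate 1 over technical replicate 2 between -0.71 and 0.21 and a median of 0.0027, beside a median of 0.0022 over all genes tested. Of the 87 members tested, 18 passed an adjusted p of 0.05, or 20.7%, beside 19.1% of all genes tested. Higher in technical replicate 1 were 10 members, or 11.5%, beside 9.64% of all genes, and lower were 8, or 9.20%, beside 9.47%. With these settings the share among the members was thus near the background. Of these 18 members, 0 differed by more than 1.5-fold, a size that 7.11% of all genes passed with the test. That background holds every gene with at least 10 summed counts, whereas the members tested had a median of 2635, so the sets were not matched by count.

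Of the 4 complex II members, 3 were called in the larger table, beside 19.1% of all genes tested, and 0 in the smaller table. Sdha had 6007 counts in technical replicate 1 and 4589 in technical replicate 2, a log2 ratio of 0.21 (95% exact interval 0.16 to 0.27) with an adjusted p of 2.27e-11 by the exact binomial test. Sdhc (log2 ratio 0.18) and Sdhb (0.11) were also higher in technical replicate 1, and Sdhd had 1550 and 1400 counts with a log2 ratio of -0.03. In the smaller table Sdha had 2596 and 2209 counts, a log2 ratio of 0.10 that missed the threshold with an adjusted p of 0.138 by the exact binomial test. In that table Sdhc had a log2 ratio of 0.25 with an adjusted p of 0.198, and Sdhb one of 0.0012 with an adjusted p of 1.0, by the same exact test.

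Atp5b was the member that differed in both tables. It had 6063 counts in technical replicate 1 and 5954 in technical replicate 2, a log2 ratio of -0.15 (95% exact interval -0.20 to -0.10) with an adjusted p of 8.50e-07 by the exact binomial test. In the smaller table its 2368 and 2401 counts gave a log2 ratio of -0.15 and an adjusted p of 0.00999 by the same exact test. That table called 1 of 86 members, beside 6.56% of its genes. In the larger table Atp5b was lower in technical replicate 1 while Atp5a1 (log2 ratio 0.08) and Atp5c1 (0.10), also of the F1 part, were higher. The lowest ratio among called members was that of Atp5g2, with 231 and 264 counts and a log2 ratio of -0.37. Its main transcript shared 87.4% of stretches with other genes, so these counts depend on the estimated division between gene and copies. In the smaller table Atp5g2 had 6 and 5 counts and a log2 ratio of 0.11. Next in the larger table were the complex I subunit Ndufb6 (-0.29) and the complex IV subunit Cox5b (-0.27). In the smaller table both had a log2 ratio of -0.28 and missed the threshold, with adjusted p of 0.0868 and 0.304 by the exact binomial test.

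The binomial test assumes that the libraries differ by the sampling of reads alone. The index of dispersion, which is 1 under that assumption, was 4.23 over the members and 4.98 over all genes tested. With a common dispersion estimated by edgeR, a coefficient of variation of 0.105, 0 members were called, beside 1.8% of all genes. The median coefficient of variation of TPM over the libraries was 3.79% for the detected members and 7.12% for the detected protein-coding genes. Above a level of 100 TPM the medians were 3.25% for the members and 3.05% for 1157 protein-coding genes.

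**Figure D4:**
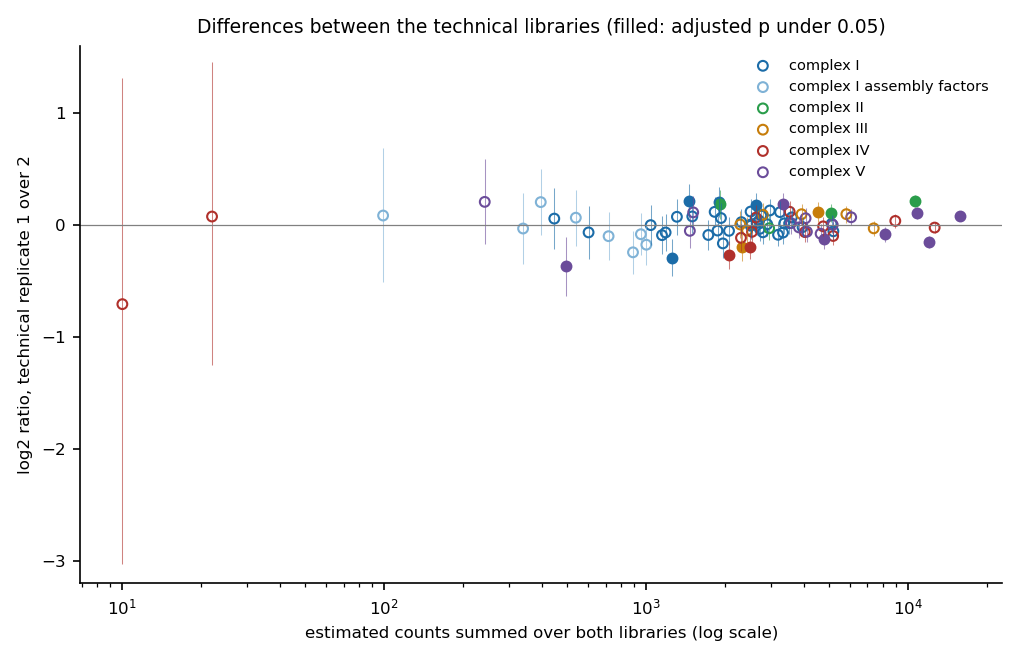
Log2 ratio of technical replicate 1 over technical replicate 2 for the 87 members tested, against the counts summed over both libraries on a log axis, coloured by complex. Filled points passed the exact binomial test at an adjusted p of 0.05, and bars are 95% exact intervals. The point farthest from 0 is Cox6b2 (4 and 6 counts, log2 ratio -0.71), which has a wide interval and was not called.

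Other genes of the pathway, taken from a list of genes with other names, were measured too. Among 36 further assembly factors of complexes I to V, 35 were detected, with a median of 24.9 TPM, close to the 26.6 TPM of the complex I assembly factors. The highest were Cox17, a copper chaperone, with 223.7 and 207.0 TPM in technical replicates 1 and 2, and Cox20, with 182.0 and 164.9 TPM. Sco2, which delivers copper to complex IV, had 0.61 and 2.30 TPM and was the one below the threshold. Of the electron carriers, the somatic cytochrome c gene Cycs had 22.9 and 18.9 TPM and its testis counterpart Cyct had no read. Of the complex V genes with other names, Usmg5 stood at 222.6 and 217.7 TPM and the inhibitor gene Atpif1 at 134.4 and 133.8 TPM.

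Of 13 regulators of respiratory chain genes and mitochondrial DNA, 12 were detected. Nrf1, a transcription factor that binds the promoters of many respiratory genes, had 65.2 and 64.5 TPM in technical replicates 1 and 2. Gabpb1, a subunit of the factor GABP, had 43.0 and 37.3 TPM. Tfam, which packages mitochondrial DNA and helps to start its transcription, had 69.9 and 48.8 TPM. The exception was Ppargc1a, the coactivator PGC-1alpha, with 6 and 4 counts or 0.11 and 0.06 TPM. Its relatives were detected, Ppargc1b at 6.18 and 7.39 TPM and Pprc1 at 15.1 and 16.4 TPM.

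Because nuclear factors are known to act at these promoters, the RefSeq promoter windows (GRCm38.p6, 250 bases before to 50 after the start) were searched on both strands. Windows were found for 76 of the 94 members, 81 windows in all, beside 32851 windows of the whole table. The NRF1 motif, a palindrome of 10 bases that stands in capitals in the sequences below, was in 8.64% of member windows and in 0.971% of all windows. The YY1 motif AAGATGGC was in 13.6% and 2.75%, and the GABPA motif CCGGAAG in 22.2% and 8.86%. The Sp1 motif GGGCGG was in 44.4% and 35.7%, and the TATA box TATAAA in 9.88% and 13.6%. Matches of different motifs were counted separately, whether or not they overlapped. Among windows of detected genes alone, the NRF1 motif was in 8.97% of those of members and 2.29% of those of protein-coding genes, the YY1 motif in 14.1% and 4.92%, and the GABPA motif in 23.1% and 19.8%. The Sp1 motif was in 43.6% and 62.8%, and the TATA box in 7.69% and 7.03%. The direction for Sp1 thus turned with the set of windows. For the TATA box the shares among detected genes were close, with 6 of 78 member windows. The median GC content was 58.3% in member windows, 52.7% in all windows and 60.7% in those of detected genes, and no test was made of these shares.

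The 7 members with the NRF1 motif were 1 complex I subunit, 2 complex I assembly factors, 1 gene each of complexes III and IV and 2 of complex V. Their matches are shown with 10 bases on each side, 5′ to 3′ on the strand of the gene, with the motif in capitals.
Ndufa11: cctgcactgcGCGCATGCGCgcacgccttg
Ndufaf4: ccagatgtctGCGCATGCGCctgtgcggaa
Ndufaf5: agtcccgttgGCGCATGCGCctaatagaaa
Uqcrc1: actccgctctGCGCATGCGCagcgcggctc
Cox6a1: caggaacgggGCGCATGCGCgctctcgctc
Atp5g2: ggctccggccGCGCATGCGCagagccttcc
Atp5k: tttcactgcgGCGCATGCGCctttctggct
The motif began 60 bases upstream of the start in Ndufa11 (chr17:56717692-56717721, plus strand), 113 in Ndufaf4 (chr4:24897960-24897989, plus strand) and 162 in Cox6a1 (chr5:115349101-115349130, minus strand). It began 42 bases upstream in Atp5g2 (chr15:102671070-102671099, minus strand) and 50 in Atp5k (chr5:108434430-108434459, minus strand). In Ndufaf5 (chr2:140170652-140170681, plus strand) and Uqcrc1 (chr9:108936668-108936697, plus strand) it lay downstream of the start. The 7 genes had a median of 135.6 TPM, from 13.0 TPM in Ndufaf5 to 424.6 TPM in Cox6a1, and the 66 other detected members with a window had a median of 182.3 TPM. A match is a description of the sequence and does not show that a factor was bound.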

How the data were processed

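The libraries were 2 technical replicates of the same biological replicate. Per the file headers, the authors deposited a larger gene table (mm10, GENCODE M21) with estimated counts, TPM, FPKM and credibility bounds of TPM (recorded as signal), and a transcript table with the percent of a gene's TPM per transcript. FPKM was not used. The smaller gene table holds whole-number counts that the authors made with GENCODE M4 genes from alignments to the genome, as their deposited notes state, and 22195 of its 22457 identifiers matched. Aligner, quantifier and strand setting are not given in the sources used here. The threshold for detection was 1 TPM in each library. The name rule gave the members. They and the gene lists were chosen with earlier results of these data known. Values in each library were printed for the 3 highest and the lowest subunit of each complex, core complex I subunits (1 item is not reported here), members under 1 TPM, paralogue groups and the most extreme called members, and other genes named were chosen after their values were seen.

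Entries without a gene name (0.174% and 0.159% of estimated counts in technical replicates 1 and 2) were left out of library sizes. Estimated counts were rounded to whole numbers. Genes with at least 10 summed counts were tested by a two-sided exact binomial test with TMM library sizes (edgeR 4.0.16, R 4.3.3), since 1 library against 1 leaves no residual degrees of freedom. The test was tested on simulated data for technical replicate 1 over 2, with counts that varied by the sampling of reads alone. Over 16882 genes it called 10 of 16683 unchanged genes. It recovered 68.7% of 2-fold and 86% of 4-fold changes, each with the right sign. The real libraries varied more (index of dispersion 4.98 over all genes tested), so this simulation cannot give their rate of false calls. A count of 0 allows 3 counts, or 0.195 and 0.221 CPM. Intervals and this limit cover counting error only. Alternatives used the authors' posterior mean TPM, other thresholds, DESeq2 1.42.0 size factors, plain totals, edgeR with a common dispersion and the smaller table. Stretches of 50 bases were compared with GENCODE M21 transcripts on either strand. Calculations used Python 3.11.15.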

Additional observations from a re-analysis of the deposited data

How the results depend on the processing

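The count of detected members, 86 in the main setting, lay between 84 and 87 under every alternative tried. With posterior mean TPM the medians were 140.0 TPM in complex I, 24.2 in its assembly factors, 135 in complex II, 238 in complex III, 187 in complex IV and 248 in complex V. With protein-coding transcripts alone they were 123, 19.3, 132, 232, 75.0 and 236 TPM, with the isoforms of other tissues counted in complex IV. Over detected members the complex IV median was 305 TPM, above that of complex V (281 TPM), and with pseudogene copies the complex V median was 291 TPM. Leaving out 1 library at a time gave complex V medians of 277 to 282 TPM. The members' share of TPM was 1.83%, and 1.78% with posterior means, 0.993% of estimated counts and 2.26% over protein-coding genes. Of the 18 members called, 0 were called with an edgeR common dispersion, 1 in the smaller table and 0 at more than 1.5-fold, and the cause was not tested. With DESeq2 size factors, plain totals or no filter on low counts the count stayed within 1.5 times of 18. DESeq2 size factors gave 16 of 87 members (18.4%), beside 19.0% of all genes, and plain totals gave 18 (20.7%), beside 19.1%. With no filter 13 members (14.9%) were called, beside 9.56% of 29305 genes. The members tested stayed at 87, while the genes tested rose from 17334, all of those added having fewer than 10 summed counts. That background is thus not matched to the members by count, and the difference in share cannot be read as a trait of the members.

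With posterior means the paralogue shares were 99.97% for Cox4i1 and Cox6a1, 99.44% for Cox6b1, 99.93% for Cox7b, 99.77% for Cox8a, 99.86% for Ndufa4, 8.91% for Atp5g2 and 45.9% for Atp5g3. By estimated counts they were 99.75% for Cox6b1, 20.5% for Cox7a2, 79.3% for Cox7a2l, 42.2% for Atp5g1 and 51.5% for Atp5g3. In the smaller table they were 99.33% for Cox6b1, 67.1% for Cox7a2, 31.2% for Cox7a2l, 3.37% for Atp5g1, 0.716% for Atp5g2 and 95.9% for Atp5g3. With pseudogene copies they were 29.6% for Atp5g1, 47.2% for Atp5g2 and 23.2% for Atp5g3. With protein-coding transcripts alone they were 14.3% for Cox7a2, 85.1% for Cox7a2l and 45.5% for Atp5g3. The settings with pseudogene copies and with protein-coding transcripts were added after seeing the data. No paired analysis was possible because there was 1 group. With 1 biological replicate the spread between animals is unknown.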

Other observations

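Genes that fit the same name pattern but are not annotated as protein coding numbered 13, and 12 of them had reads. Ndufb4c, a processed pseudogene on chromosome 15, had 207.6 and 211.7 TPM in technical replicates 1 and 2. Ndufb1-ps, annotated on chromosome 12 as a long non-coding RNA from a bidirectional promoter, had 135.6 and 132.1 TPM, from 867 and 742 estimated counts. The median of the 38 complex I subunit genes was 156.8 TPM. Cox6c2 had 14.2 and 16.0 TPM and Ndufab1-ps 12.9 and 11.2 TPM, both processed pseudogenes. The other 9 lay below 5 TPM in both libraries, and Atp5l-ps2 had no read.

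Across the 86 detected members, mean TPM and gene length were weakly related, with Pearson's r of -0.23 on log2 values and Spearman's rho of -0.36, as a description over genes of the same libraries. Over the 10288 detected protein-coding genes they were -0.32 and -0.30. Of the detected members, 37 had an average transcript length under 600 nt. The effective length in the larger gene table was 49 bases shorter than the length for 99.9% of entries in both libraries. Library fragments were 100 to 300 bp, and the effect of this on the levels of short genes was not tested.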
